A study of Arabidopsis thaliana with 18 samples.

Results

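Cytochrome P450 genes (CYP genes) were followed in leaf blades and petioles of wild-type Arabidopsis thaliana as white light gave way to darkness, with or without a far-red pulse. The members are the genes whose probe set carries 1 gene in the platform's annotation and whose symbol is CYP with a family number and a subfamily letter. They number 23 of 13350 genes with such a probe set, on an array with 22746 probe sets tested. No member has more than 1 probe set, so no choice between probe sets was needed. All 23 matched the RefSeq gene table by Entrez number under the same symbol. A further 2 probe sets were left out because each is annotated to 2 genes.

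P450 enzymes are haem proteins of the endoplasmic reticulum and plastids that insert oxygen into small molecules. They belong to the routes to lignin, sterols, cuticle lipids and defence compounds, and they make or inactivate most plant hormones. A family number groups proteins by sequence similarity, and members of one subfamily often stand side by side in the genome.

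Plants spent 19 days under uninterrupted white light at 22 °C. The white-light group (WL) stayed there for another 2 h, the dark group (D) was kept dark for 2 h, and the far-red group (FRD) received a far-red pulse before 2 h in the dark. No mutant or transgenic group is part of the design, and the labels name no ecotype. Blades and petioles of rosette leaves 3 and 4 were extracted apart, which gives 6 groups of 3 arrays, described as independent biological replicates. D against WL asks for the response to darkness, FRD against D for the response to the pulse, and FRD against WL for both together. D against WL and FRD against WL share the white-light arrays of a tissue. FRD against D shares its dark arrays with D against WL.

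Values express a probe set relative to its median over the 3 white-light arrays from the same tissue. Ratios hold no level, so bright and dim genes cannot be told apart, and the tissue labels could not be checked against marker genes. Petiole and blade levels in white light cannot be compared for the same reason. In tissue RNA, fewer cells of a type and less RNA per cell cannot be told apart. Array medians lay between 0.937 and 1.02. A change was called at an adjusted p under 0.05 from limma, a linear model with moderated errors, fitted over all 18 arrays, with Benjamini-Hochberg adjustment over all probe sets. Changes are given on the log2 scale ± the standard error of that fit.

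The members cover a narrow part of the family. The CYP71B subfamily supplied 19 of the 23, and families 51, 78, 79 and 84 supplied 1 each. Lists of P450 genes for brassinosteroid, gibberellin, abscisic acid, cytokinin, jasmonate and strigolactone metabolism, carotenoids and cuticle lipids had no member here. RefSeq annotates CYP51G2 (AT2G17330) and CYP71B27 (AT1G13070) as transcribed pseudogenes. The symbol of CYP71B30P ends in P, as pseudogene names do, but RefSeq lists that gene as protein-coding.

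Of the 23 genes, 5 were called in at least 1 of the 6 light comparisons, which is 21.7%. The same rule called 18.6% of all probe sets tested. All 5 genes are of the CYP71B subfamily: CYP71B22, CYP71B23, CYP71B26, CYP71B28 and CYP71B34. They account for 13 called changes. The other 18 genes, among them all 4 outside CYP71B, were called in none. The share of calls among the P450 genes was thus near that of the array. Their median change lay between -0.22 and 0 in the 6 comparisons and that of all probe sets between -0.03 and 0, so the results below are those of single genes. Quantile normalization of the arrays kept 3 of the 13 calls, those of CYP71B22 in dark blades and dark petioles and that of CYP71B26 in far-red petioles. A fit of just the 6 arrays compared kept 5: CYP71B22 in dark petioles and, against white light, in far-red blades and petioles, and CYP71B26 in dark and far-red petioles.

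**Figure D1:**
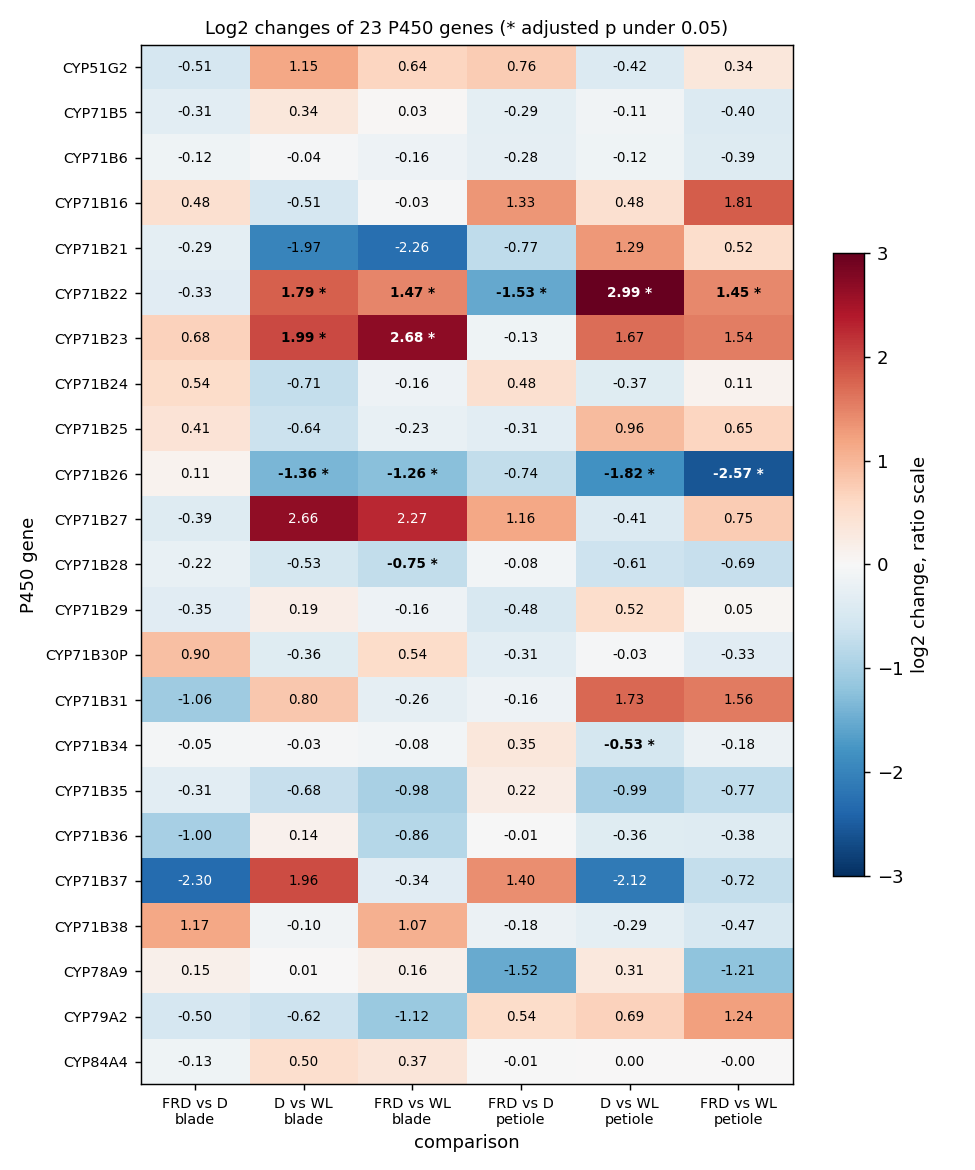
Log2 change of each of the 23 P450 genes (rows) in the 6 light comparisons (columns), with red for higher, blue for lower and an asterisk for an adjusted p under 0.05. CYP71B22 has 5 called changes and CYP71B26 has 4, while 18 genes have none.

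CYP71B22 (AT3G26200), a CYP71B enzyme whose substrate is not stated here, had the largest called change among the P450 genes. In petioles its ratio stood at 1, 0.862 and 1.108 in the WL arrays, at 7.836, 8.687 and 6.979 in the D arrays, and at 2.572, 2.879 and 2.646 in the FRD arrays. The 3 groups did not overlap, with darkness highest and the far-red group between darkness and white light. In blades the ratio was 1.034, 0.822 and 1 in WL, 2.34, 3.164 and 4.782 in D, and 2.177, 2.786 and 2.964 in FRD. All dark blades and all far-red blades lay above white light, and the D and FRD arrays overlapped.

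CYP71B22 rose in dark petioles by 2.99 ± 0.22 log2 units, a 7.92-fold change (limma adjusted p = 2.79e-05). In dark blades it rose by 1.79 ± 0.22, which is 3.47-fold (limma adjusted p = 0.000243). After the pulse and darkness it was raised over white light by 1.45 ± 0.22 in petioles and by 1.47 ± 0.22 in blades (limma adjusted p = 0.0012 and 0.00084). Against darkness alone the pulse lowered it in petioles, where it fell by 1.53 ± 0.22 (limma adjusted p = 0.00276). In blades the value for the pulse was -0.33 ± 0.22 and was not called. The 5 calls held without any 1 array of either group. The fall after the pulse and the rise in darkness share the dark petiole arrays. When the fit took just the 6 arrays compared, the blade D against WL call (adjusted p = 0.0547) and the pulse call in petioles (adjusted p = 0.0624) were lost, the latter also with quantile normalization (adjusted p = 0.0946).

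Whether CYP71B22 responded differently in the tissues was tested as the petiole change minus the blade change. For darkness this difference was 1.19 ± 0.31 (95% interval 0.53 to 1.85). For the pulse it was -1.21 ± 0.31 (95% interval -1.87 to -0.55). Both differences use the dark arrays of blades and petioles, with opposite sign, and so are not independent. Neither passed the adjustment over all probe sets (limma adjusted p = 0.409 and 0.448), although the unadjusted p was 0.00176 and 0.0016. For FRD against WL the difference was -0.01 ± 0.31, with an interval from -0.68 to 0.65.

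**Figure D2:**
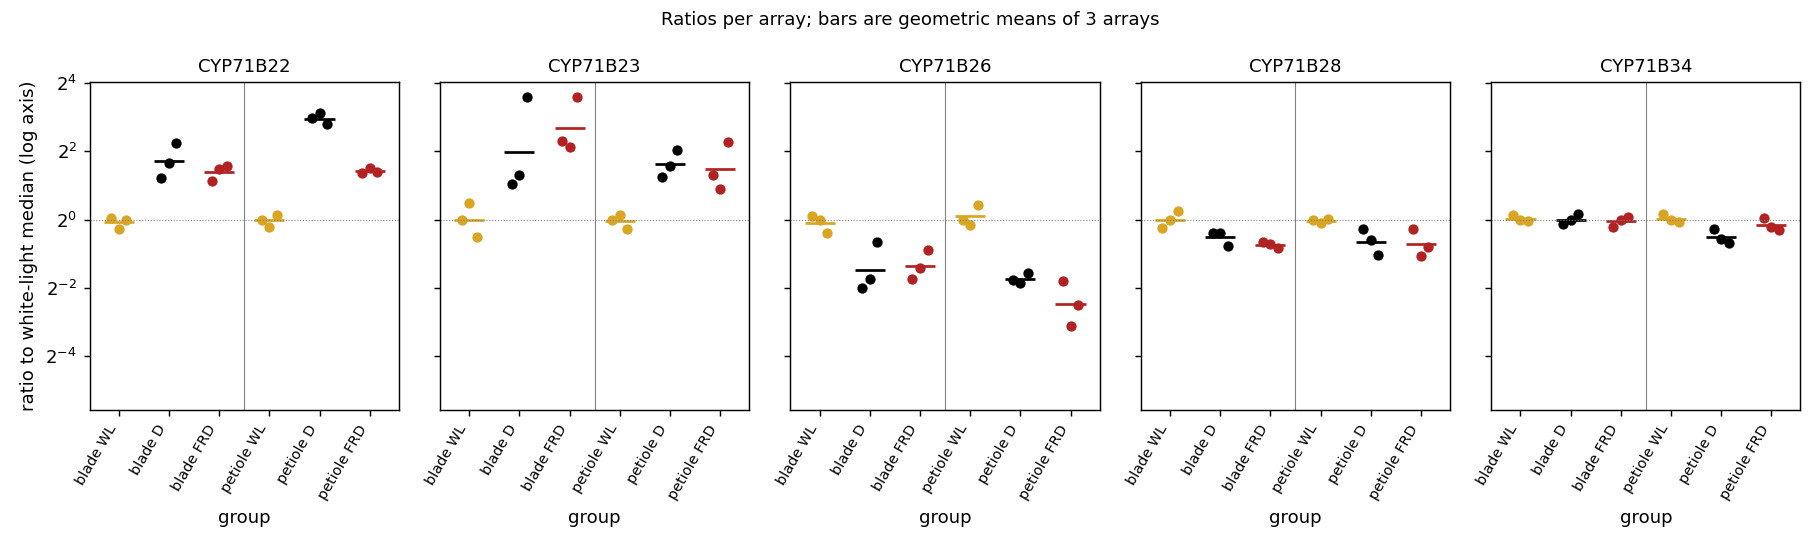
Ratio to the white-light median on a log axis for the 5 P450 genes with a called change, by group, with 1 point per array and bars at the geometric mean of 3 arrays. CYP71B22 reaches 6.979 to 8.687 in dark petioles and 2.572 to 2.879 in far-red petioles, and CYP71B26 lies below its white-light arrays in all 4 other groups.

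CYP71B23 (AT3G26210), the next gene to CYP71B22 in the annotation, was also higher without light. In blades its ratio was 1, 1.413 and 0.696 in WL, 2.075, 2.494 and 12.02 in D, and 4.92, 4.381 and 11.98 in FRD. The arrays with replicate number 3 stood far above the other arrays of both groups, and the groups lay wholly above white light. In petioles the ratio was 1, 1.099 and 0.825 in WL, 2.37, 2.981 and 4.115 in D, and 2.455, 1.87 and 4.865 in FRD. Replicate 3 was again highest in the D and in the FRD arrays of petioles, and neither group overlapped white light.

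CYP71B23 rose in far-red blades by 2.68 ± 0.6 over white light, a 6.4-fold change (limma adjusted p = 0.0104), a call that held without any single array. This call was lost with quantile normalization (adjusted p = 0.175) and with just the 6 arrays compared (adjusted p = 0.0583). Without all replicate 3 arrays the change was smaller, at 1.97, and was called (adjusted p = 0.00519). In dark blades CYP71B23 rose by 1.99 ± 0.6 (limma adjusted p = 0.0472). That second call was lost without blade D replicate 3, where the change was 1.19 (adjusted p = 0.151). It was also lost without blade D replicate 2 or without any of the 3 blade WL arrays, and without all replicate 3 arrays it was 0.94 (adjusted p = 0.051). In petioles the values of 1.67 ± 0.6 for D and 1.54 ± 0.6 for FRD against WL were not called (limma adjusted p = 0.132 and 0.147). Without all replicate 3 arrays both were called, at 1.34 and 1.03 (adjusted p = 0.0306 and 0.046). The change that CYP71B23 needed for a call was 1.97 in dark blades and 2.18 in dark petioles.

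CYP71B26 (AT3G26290) moved the opposite way. Its petiole ratios were 1, 0.901 and 1.344 in WL, 0.295, 0.274 and 0.338 in D, and 0.286, 0.115 and 0.177 in FRD. Blades had 1.068, 1 and 0.766 in WL, 0.251, 0.302 and 0.632 in D, and 0.297, 0.375 and 0.54 in FRD. Every dark or far-red array lay below every white-light array of its tissue, and the D and FRD arrays overlapped in both tissues.

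In petioles CYP71B26 fell by 1.82 ± 0.37 log2 units in darkness and by 2.57 ± 0.37 after pulse and darkness, to 0.283 and 0.169 of white light (limma adjusted p = 0.0113 and 0.000881). In blades it fell by 1.36 ± 0.37 and 1.26 ± 0.37 (limma adjusted p = 0.0283 and 0.0415). Ratios were also floored at their 10th percentile, 0.553, which lies above most dark and far-red values of this gene. All 4 calls held with smaller changes, -0.95 for both in petioles and -0.69 and -0.76 in blades. The floor gives all dark and far-red petiole arrays and all far-red blade arrays the same value and so removes their spread. The calls under the floor are thus no separate check. The petiole calls held without any single array, and the dark petiole call was lost without all replicate 3 arrays, at -1.74 (adjusted p = 0.0601). The blade calls were less firm. That for darkness was lost without WL replicate 1 or 2 or D replicate 1 or 2, at values from -1.32 to -1.1. That for FRD was lost without any of the WL arrays or FRD replicate 1 or 2, at values from -1.4 to -1.06. The pulse itself gave 0.11 ± 0.37 in blades and -0.74 ± 0.37 in petioles, neither called.

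CYP71B28 and CYP71B34 had small called falls. CYP71B28 (AT1G13090) read 0.844, 1 and 1.2 in WL blades and 0.63, 0.607 and 0.559 in FRD blades, without overlap, a fall by 0.75 ± 0.22 (limma adjusted p = 0.0435). This call was lost on leaving out WL replicate 2 or 3 or any FRD array of blades, and without all replicate 3 arrays (-0.57, adjusted p = 0.229). Its other values against WL were -0.53 in dark blades, -0.61 in dark petioles and -0.69 in far-red petioles, each with groups that did not overlap and none called. Those in darkness were -0.27 and -0.39 without all replicate 3 arrays. CYP71B34 (AT3G26300) read 1.113, 1 and 0.951 in WL petioles and 0.835, 0.672 and 0.625 in D petioles, again without overlap. It fell by 0.53 ± 0.14 (limma adjusted p = 0.0414). This call was lost without any of the WL arrays of petioles, without D replicate 2 or 3, and without all replicate 3 arrays (-0.49, adjusted p = 0.175). In blades its change in darkness was -0.03 ± 0.14.

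In dark blades the calls were 3 of 23 genes, 2 higher and 1 lower, or 13% of the members against 11.2% of all probe sets. In far-red blades 4 were called against white light, 2 higher and 2 lower, or 17.4% against 11.2%. In petioles darkness gave 3 calls, or 13% against 5.6%, and pulse with darkness gave 2, or 8.7% against 8.31%. The pulse against darkness gave 1 call in petioles, or 4.35% against 1.09%. In blades limma called 0 for the pulse, against 0.651% of all probe sets, with 1 member at an unadjusted p under 0.05, as had 7.57% of all probe sets. The shares of members rest on 0 to 4 genes each and were not tested against those of all probe sets.

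Groups that did not overlap were counted as well. In dark blades they were found for 8 of 23 genes (34.8%) against 27.7% of all probe sets, and in far-red blades against white light for 6 (26.1%) against 28.1%. In petioles the numbers were 7 (30.4%) against 26.3% for darkness and 8 (34.8%) against 26.4% for FRD and WL. For the pulse they were 4 in blades (17.4%) against 10.9% and 3 in petioles (13%) against 13.9%. All 7 of the pulse cases were lower after the pulse, a direction found without overlap for 5.59% of all probe sets in blades and 6.85% in petioles. In blades they were CYP71B37 (-2.3 ± 0.87), CYP71B36 (-1.0 ± 1.09), CYP71B5 (-0.31 ± 0.16) and CYP71B6 (-0.12 ± 0.12). In petioles they were CYP71B22 (-1.53 ± 0.22), CYP71B29 (-0.48 ± 0.21) and CYP71B6 (-0.28 ± 0.12). CYP71B22 alone was called.

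Most P450 probe sets varied widely between arrays of one group. The residual SD over the 6 groups ran from 0.12 to 1.63 log2 units with a median of 0.894, against a median of 0.326 over all probe sets. A residual SD of 0.75 or more was found for 13 of the 23 genes and for 29.9% of all probe sets. Of those 13 genes CYP71B23 was called, and of the 10 with a residual SD below 0.5, 4 were. In dark blades a 2-fold change would have been called for 7 genes, and the change needed for a call ran from 0.39 to 4.15 log2 units. For the pulse in blades it ran from 0.56 to 6.03. In none of the 6 light comparisons would a 2-fold change have been called for more than 7 of the 23 genes.

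**Figure D3:**
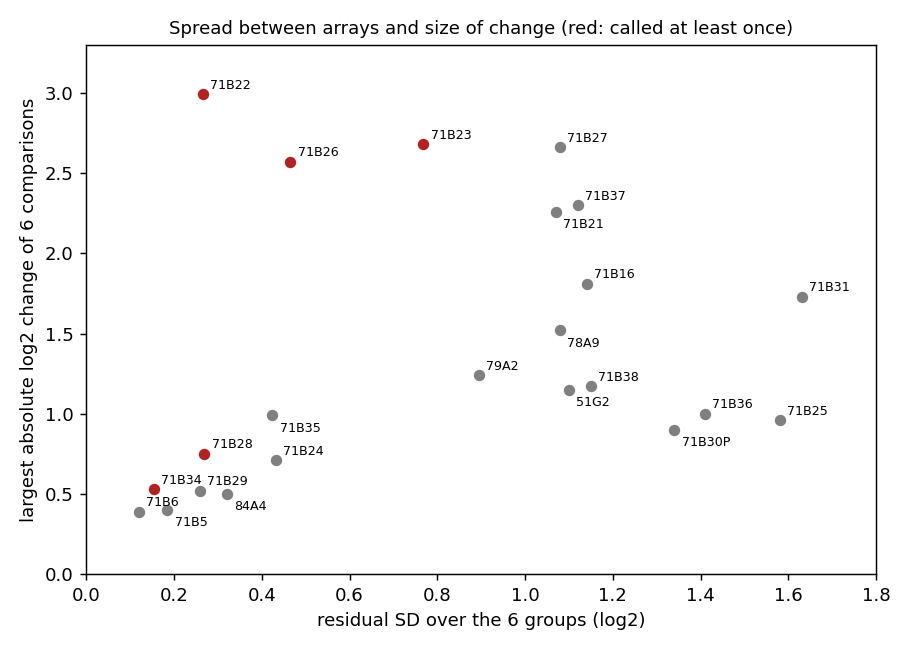
Residual SD of log2 ratios over the 6 groups (x axis) against the largest absolute log2 change in the 6 light comparisons (y axis), 1 point per P450 gene labelled without the CYP prefix, with called genes in red. CYP71B27, CYP71B37 and CYP71B21 had changes above 2 with residual SDs of 1.07 to 1.12 and no call.

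Large but uncalled values came from CYP71B27, CYP71B37 and CYP71B21. CYP71B27, a transcribed pseudogene, read 0.77, 1 and 5.916 in WL blades, 9.415, 14.4 and 8.463 in D blades and 5.461, 10.8 and 8.646 in FRD blades. WL replicate 3 was the high one of its group and overlapped the far-red arrays, while the dark arrays lay above all WL arrays. The change in dark blades was 2.66 ± 0.83 (limma adjusted p = 0.0569). Without blade WL replicate 3 it was 3.58 and was called (adjusted p = 0.013). In dark petioles the value was -0.41 ± 0.83.

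CYP71B37 (AT3G26330) gave values of opposite sign in the tissues. Blades read 1, 0.895 and 1.376 in WL, 15.01, 1.546 and 3.126 in D, and 0.723, 1.066 and 0.794 in FRD. The dark blades lay above both other groups, and their highest array stood far above the other arrays. Petioles read 0.388, 1.104 and 1 in WL, 0.0834, 0.12 and 0.521 in D, and 0.217, 0.326 and 1.353 in FRD. There the dark group reached lowest and overlapped both others. The changes in darkness were 1.96 ± 0.87 in blades and -2.12 ± 0.87 in petioles, and neither was called. The pulse gave -2.3 ± 0.87 in blades, also not called (limma adjusted p = 0.487). Without blade D replicate 1, the array at 15.01, the blade values were 1.04 for darkness and -1.37 for the pulse. For darkness the petiole change minus the blade change was -4.08 ± 1.23 (95% interval -6.73 to -1.43), with an unadjusted p of 0.00533 and a limma adjusted p = 0.508. For the pulse it was 3.7 ± 1.23 (95% interval 1.05 to 6.34), with an unadjusted p of 0.00982 and a limma adjusted p = 0.715. Both include the array at 15.01. They use the dark arrays of blades and petioles with opposite sign, and so are not independent.

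CYP71B21 (AT3G26190), the gene before CYP71B22 in the annotation, read 2.433, 0.252 and 1 in WL blades, 0.243, 0.234 and 0.179 in D blades and 0.153, 0.283 and 0.128 in FRD blades. Dark blades lay just below the lowest white-light array, and 1 far-red array lay above it. The change in dark blades was -1.97 ± 0.83 (limma adjusted p = 0.161). It ranged with the array left out, from -1.21 without blade WL replicate 1 (adjusted p = 0.479) to -2.85 without blade WL replicate 2, where it was called (adjusted p = 0.0473). With ratios floored at their 10th percentile it was -1.0 (adjusted p = 0.438). In dark petioles it was 1.29 ± 0.83, where replicate 3 alone stood at 10.33 and the other arrays at 1.5 and 0.918.

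**Figure D4:**
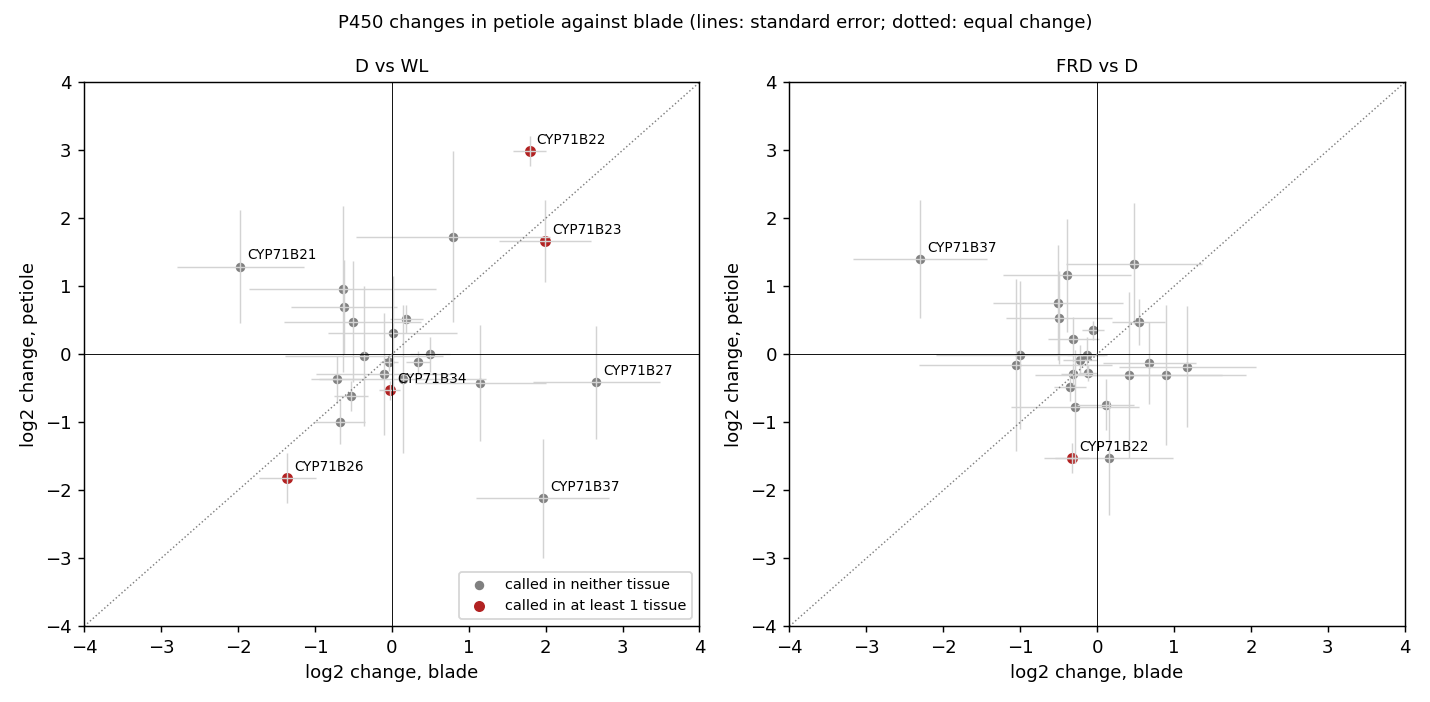
Log2 change in petioles (y axis) against that in blades (x axis) for the 23 P450 genes, for darkness (D vs WL) and for the pulse (FRD vs D), with standard errors as lines and the dotted line at equal change. For darkness CYP71B22, CYP71B23 and CYP71B26 have the same sign in both tissues and CYP71B37 and CYP71B21 have opposite signs. For the pulse the called gene is CYP71B22.

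Changes in darkness had the same sign in both tissues for 14 of 23 genes (60.9%), 6 higher and 8 lower, against 67.8% of all probe sets. For FRD against WL this held for 11 genes (47.8%) against 67.4%, and for the pulse for 11 (47.8%) against 55%. The petiole change minus the blade change was called by limma for 0 of the 23 genes in each of the 3 contrasts. All probe sets gave 0% for the pulse, 0.0044% for darkness and 0.0352% for both together. At an unadjusted p under 0.05 stood 2 of the 23 genes for the pulse, 5 for darkness and 3 for both together, where all probe sets gave 5.26%, 6.62% and 7.39%. The share of members was the higher one in each of the 3 contrasts. It rests on these few genes and was not tested. No alternative fit called a member.

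Several CYP71B genes are neighbours. By RefSeq gene order 11 members form a run with at most 6 genes between one and the next, from CYP71B16 to CYP71B37. It holds 11 of the 23 members and 4 of the 5 called genes, where 18.6% of all probe sets were called in at least 1 light comparison. Calls inside the run were not tested against calls outside it. CYP71B21, CYP71B22 and CYP71B23 lie directly next to each other. In darkness the first had values of -1.97 and 1.29 in blades and petioles, the second rose in both, and the last had 1.99 and 1.67. CYP71B24, with 1 further P450 gene between it and CYP71B23, stood at -0.71 ± 0.34 in dark blades and -0.37 ± 0.34 in dark petioles. CYP71B25 had -0.64 ± 1.22 and 0.96 ± 1.22. CYP71B26 was called lower in both tissues. CYP71B34, separated from it by 1 other P450 gene, was called lower in dark petioles alone, with -0.03 ± 0.14 in dark blades. Then came CYP71B35 with -0.68 ± 0.33 and -0.99 ± 0.33, CYP71B36 with 0.14 ± 1.09 and -0.36 ± 1.09, and CYP71B37 with 1.96 ± 0.87 and -2.12 ± 0.87, none of them called. The run thus held calls in both directions. The probe sets of all 23 members have the plain suffix that the array's maker uses for probes matching a single gene, and cross-hybridization between such close relatives was not tested.

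**Figure D5:**
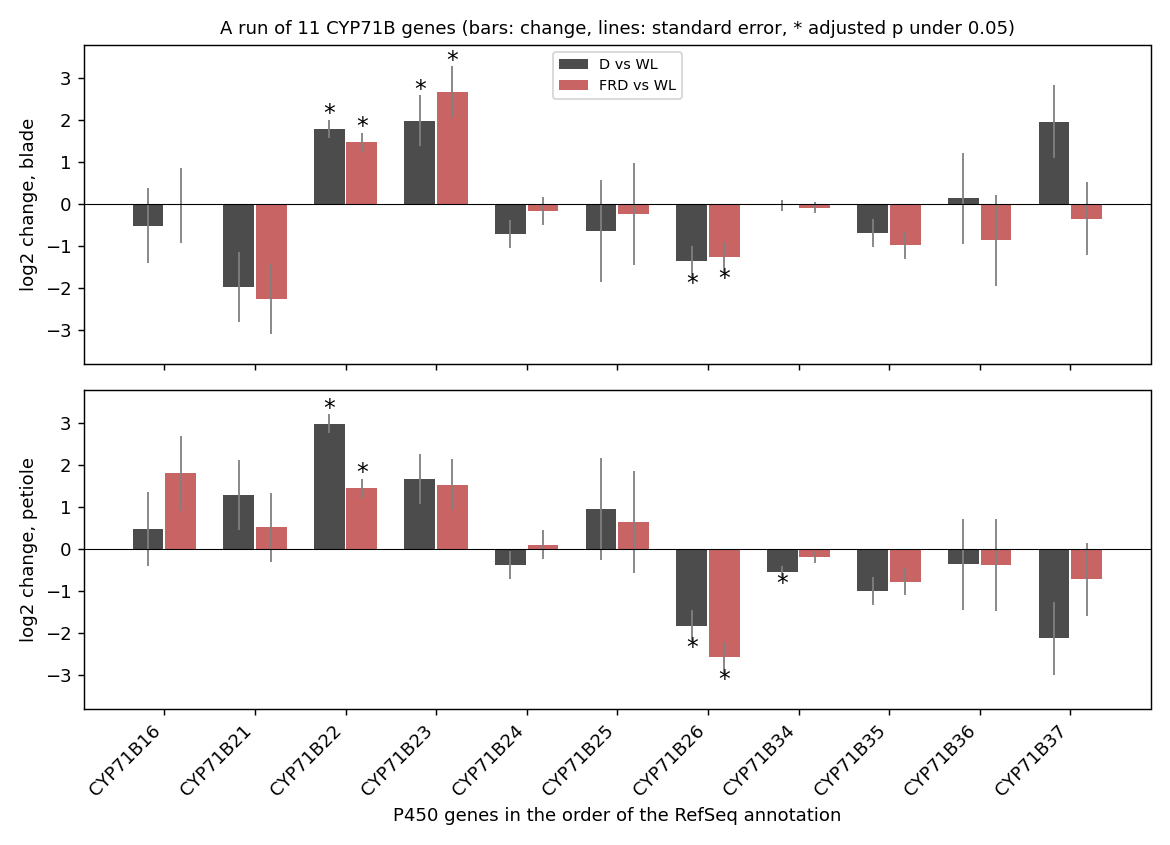
Log2 change against white light in darkness (black) and after pulse and darkness (red) for the 11 CYP71B genes of one genomic run, in annotation order, blades above and petioles below, with lines for standard errors and asterisks for an adjusted p under 0.05. CYP71B22 and CYP71B23 stand above 0 and CYP71B26 below 0 in both panels.

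CYP71B35 (AT3G26310) was lower in all 4 comparisons with white light, without overlap in any of them, and was called in none. It read 1.036, 1 and 0.891 in WL blades, 0.69, 0.535 and 0.614 in D blades and 0.573, 0.547 and 0.382 in FRD blades. Its largest change was -0.99 ± 0.33 in dark petioles (limma adjusted p = 0.11). With ratios floored at 0.553 it was called in dark and far-red blades and dark petioles, at -0.66, -0.8 and -0.7 (limma adjusted p = 0.0142, 0.00454 and 0.0171). In far-red petioles it was not called, at -0.51 (limma adjusted p = 0.0618). The floor lies above the lowest array of each of these groups and so removes part of their spread.

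The CYP71B genes of 2 shorter runs, of 3 members each, gave a single call, that of CYP71B28. One run holds CYP71B27, CYP71B28 and CYP71B29 (AT1G13100). The last pair are direct neighbours, and CYP71B29 read 1.013, 1 and 0.995 in WL petioles and 1.19, 1.573 and 1.603 in D petioles. The groups did not overlap, and its change of 0.52 ± 0.21 was not called (limma adjusted p = 0.19). CYP71B5, CYP71B30P and CYP71B31 form the other run. CYP71B31, described as a terpenoid-oxidizing enzyme of flowers, read 0.883, 1 and 2.879 in WL petioles and 16.3, 7.238 and 0.78 in D petioles. It had the widest spread of all members, and its value of 1.73 in dark petioles was not called. CYP71B5 varied little, and its changes lay between -0.4 and 0.34.

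CYP71B6 (AT2G24180), which acts on indole-3-acetonitrile in the indolic defence pathway, had the smallest spread of all members. Its ratios in petioles were 1, 1.124 and 0.924 in WL, 0.88, 0.999 and 0.93 in D, and 0.722, 0.727 and 0.872 in FRD. Far-red petioles lay below both other groups without overlap. The change against white light was -0.39 ± 0.12 (limma adjusted p = 0.0571) and that against darkness -0.28 ± 0.12 (adjusted p = 0.533), so neither was called. The first was called with array weights (-0.43, adjusted p = 0.0234) and without petiole FRD replicate 3 (-0.48, adjusted p = 0.0375).

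The 4 members outside CYP71B were not called in any comparison. CYP79A2 (AT5G05260), which turns phenylalanine into an oxime on the way to benzylglucosinolate, read 1, 0.941 and 1.279 in WL petioles, 1.882, 2.958 and 0.917 in D petioles and 2.448, 3.209 and 2.011 in FRD petioles. The far-red petioles lay above white light without overlap, and the change of 1.24 ± 0.69 was not called (limma adjusted p = 0.353). In blades the value was -1.12 ± 0.69. CYP84A4 (AT5G04330), an enzyme of arabidopyrone synthesis, changed by at most 0.5 ± 0.26, in dark blades. CYP78A9 (AT3G61880), a regulator of seed and fruit size, read 0.976, 1.055 and 1.547 in D petioles and 0.54, 0.113 and 1.103 in FRD petioles, a change of -1.52 ± 0.84 with overlap. CYP51G2, a transcribed pseudogene of the sterol demethylase family, read 1, 0.748 and 2.214 in WL blades and 5.158, 3.102 and 1.137 in D blades, a change of 1.15 ± 0.85 with overlap.

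The remaining CYP71B genes gave wide or small values without calls. CYP71B16, CYP71B25, CYP71B30P, CYP71B36 and CYP71B38 had residual SDs from 1.14 to 1.58. The highest of their changes was 1.81 ± 0.89 for CYP71B16 in far-red petioles against white light. Its arrays read 7.431, 6.543 and 1.155 after the pulse and 0.681, 1.91 and 1 in WL, with overlap. The spread of CYP71B36 lay mostly in petioles, where replicate 3 read 0.121 in WL, 0.101 in D and 0.0573 in FRD. The other petiole arrays read 0.586 to 1.12. Within its blade groups the log2 SD was 0.14 in WL, 0.2 in D and 0.5 in FRD. The standard error of its blade changes comes from the spread of all 6 groups. With just the 6 blade arrays compared, its change after the pulse was still not called (limma adjusted p = 0.608).

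Likeness of pattern was described as Pearson's r over the 4 group means that are not white light, which is a description that rests on 4 points. The member most like CYP71B22 was CYP71B29 at 0.93, followed by CYP71B21 at 0.65 and CYP71B31 at 0.59. Most like CYP71B26 was CYP78A9 at 0.95, then CYP71B6 at 0.87 and CYP71B5 at 0.86. For CYP71B23 it was CYP71B26 at 0.78, a gene that fell where CYP71B23 rose against white light, since white light does not enter the measure.

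Other genes of pathways with P450 steps could be followed in a few cases. Of 75 listed genes 7 had a named probe set, and none of the P450 reductase, brassinosteroid, abscisic acid or gibberellin genes listed were among them. OPCL1, a ligase of jasmonate synthesis, rose in blades by 1.12 ± 0.28 in darkness and by 1.01 ± 0.28 after pulse and darkness (limma adjusted p = 0.0195 and 0.0318). HCT, an acyltransferase of the lignin route, fell by 0.43 ± 0.1 in far-red petioles against white light (limma adjusted p = 0.0194). DFR, UGT74B1, BCAT4, AOP3 and LYC were called in no comparison.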

How the data were processed

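Biotin-labelled RNA was hybridized to Affymetrix Arabidopsis arrays, per the labels' protocols. The deposited values are ratios. The 3 WL arrays of a tissue have a median of exactly 1 in all 22810 probe sets, so the authors divided by that median, a reading from the values. Their summarization, background correction and scaling are not given in the sources used here. Such a divisor leaves differences within a tissue unchanged. Control probe sets (64) did not enter, and the 3 missing values are in no member.

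Log2 ratios without a pseudocount were fitted with limma 3.58.1 (R 4.3.3), with 1 mean per group, 12 residual and 1.459 prior degrees of freedom and two-sided tests. The fit was also run on simulated data with independent normal noise and changes placed in dark petioles alone. That simulation holds no correlated or outlying arrays, so it is no check on their effect. Alternatives were quantile normalization, a floor at the 10th percentile (a ratio of 0.553), compared arrays alone, array weights, the replicate number as a block, single arrays left out and, added after seeing the data, all replicate 3 arrays left out.

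Genes named are the called members, up to 5 rises and 5 falls per comparison without overlap, and members of role lists, which take in all 23. Members and lists were chosen with earlier results of these data known. Gene names and order are from RefSeq (TAIR10.1). No coordinates are given.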

Additional observations from a re-analysis of the deposited data

How the results depend on the processing

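None of the 13 called changes reversed under any alternative, and 8 held without each single array. The floor at the 10th percentile kept 13, array weights 12, the fit without all replicate 3 arrays 9, the compared arrays alone 5 and quantile normalization 3. The floor removes spread between the low arrays of CYP71B26, so the calls it kept for that gene are no separate check. Among 23 named changes not called, 9 were called under at least 1 alternative and none reversed. With quantile normalization 1 gene was called in dark blades in place of 3, 0 in far-red blades against WL in place of 4, 1 in dark petioles in place of 3, 1 in far-red petioles against WL in place of 2, and 0 for the pulse in petioles in place of 1. Over all probe sets it called 160, 187, 84, 183 and 33 in these comparisons, where the main fit called 2542, 2537, 1274, 1891 and 249. The compared arrays alone gave 0 in dark blades, 1 in far-red blades against WL and 0 for the pulse in petioles, with 447, 631 and 14 over all probe sets, and the floor gave 5 in dark blades, with 2800. Leaving out single arrays gave 1 to 3 in dark blades (1 without WL replicate 1 or D replicate 2) and 2 to 3 in far-red blades against WL (2 without FRD replicate 1 or 2). It gave 2 to 3 in dark petioles and in far-red petioles against WL. The causes were not tested. The planned change of probe set per gene was not run, since each gene has 1. Deviations of same-numbered arrays correlated at 0 to 0.15, above 0.1 for number 3 alone. Number 3 correlated best with its own number in all 6 light comparisons, at 0.11 to 0.15 against at most -0.03 with another number. Numbers 1 and 2 did not always do so, and the numbers were not taken as pairs. With the replicate number as a block the counts were 3 and 4 in dark and far-red blades, 3 and 2 in petioles, 1 and 0 for the pulse in petioles and blades, and 0 for each difference between tissues. The block thus changed no count of members and ended none of the 13 calls. Over all probe sets it called 3359 in dark blades and 3386 in far-red blades against WL, more than the 2542 and 2537 of the main fit. In petioles it called 2039 and 2605, more than the 1274 and 1891 of the main fit. Depth in the sense of signal over background is unknown for ratios.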

Other observations

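CYP718, a P450 gene whose symbol carries no subfamily letter and which is therefore not counted above, gave 1.89 ± 0.68 in dark petioles and 1.78 ± 0.68 in far-red petioles against WL, and -0.24 ± 0.68 and 0.02 ± 0.68 in blades. None of these was called (limma adjusted p = 0.137, 0.143, 0.889 and 0.992).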
